A study of Mus musculus with 17 samples.

Results

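The comparison described here sets the liver of mice fed a fungal oil rich in arachidonate against the liver of mice fed a fish oil rich in docosahexaenoate. Its members were the 4 liver arrays of these diets among 17 arrays in all, with the RNA of each oil diet, 1 per diet, read once on each of the paired designs (chip A and chip B). Each chip carries probe sets, groups of short oligonucleotides that read 1 transcript each, and the deposited value of a probe set is its intensity. The fungal oil diet held 1.1% of that oil and so 0.5% by weight of arachidonate, and the fish oil diet held 1.9% of that oil and so 0.5% by weight of docosahexaenoate. A further diet held both, at 1.1% of fungal oil and 1.9% of fish oil, with 1 liver RNA, and the control diet held neither, with 2 liver RNAs. In each oil diet the oil took the place of some of the medium chain triacylglycerol in the control feed. All groups were male Rj:NMRI mice, an outbred stock, housed 10 to a cage, and 5 of the 10 mice of a diet were selected. They were killed in the morning of day 57 or 58 without a full fast. The labels do not say whether an RNA came from 1 animal or a pool, nor whether the 2 control RNAs came from separate animals, so the spread between them may be technical. A cage held as many mice as a diet, and neither cage nor day of killing is given per diet, so these cannot be told apart from the oils.

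Arachidonate is an omega-6 and docosahexaenoate an omega-3 long-chain polyunsaturated fatty acid. In liver, fatty acids of this kind are known as ligands of PPAR-alpha, a nuclear receptor that turns on genes of fatty acid uptake and oxidation, and as inhibitors of SREBP-1c, a transcription factor that turns on genes of fatty acid synthesis. Both oils could therefore act on the same genes, and the comparison asks where the livers of the 2 diets differed.

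Each oil had 1 RNA, so the difference between them has no replicate of its own. The yardstick of spread was the difference between the 2 control RNAs, and limma, a linear model fit with a moderated error, took its error from those controls alone. Values below 15 were set to 15, a floor that equals 0.1 of an array's trimmed mean. Of 6537 probe sets with a mean over the 5 liver RNAs at or above their chip's median, 0 passed at an adjusted p of 0.05, a share of 0%, and 588 (8.99%) had an unadjusted p under 0.05. Upp2 and Dbp shared the lowest adjusted p, 0.528, with many other probe sets. In fungal oil liver, 425 probe sets (6.50%) read at least 2-fold higher than in fish oil liver and 401 (6.13%) at least 2-fold lower, and the controls differed from each other at least 2-fold at 687 (10.5%). Chip B held 559 of these 826 differences between the oils, and 218 had 1 oil at the floor.

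The oils spread more widely than the controls did among bright probe sets, those at or above the 75th percentile of their chip. The SD of the log2 ratio of fungal oil to fish oil was 0.38 over 1633 bright probe sets of chip A, against 0.28 for the ratio of control 1 to control 2. On chip B, with 1636 bright probe sets, the SDs were 0.53 between the oils and 0.44 between the controls. Among the bright probe sets of both chips 117 (3.58%) were at least 2-fold apart between the oils and 72 (2.20%) between the controls. On this scale the median over all kept probe sets was -0.03 between the oils and 0.02 between the controls. The RNA quality measure that the chips provide, the ratio of a 3-prime to a 5-prime probe set of 1 transcript, was not equal in the 2 livers. For Gapdh on chip A it was 2.48 in fungal oil liver and 1.95 in fish oil liver, against 2.07 and 1.91 in the controls, and on chip B it was 2.51 and 3.26, against 2.23 and 1.99. For Actb it was 3.87 and 3.49 on chip A, against 3.94 and 3.42 in the controls, and 4.17 and 3.33 on chip B, against 3.71 and 3.38, so that on chip B the 2 transcripts ran opposite ways. The part of RNA quality in any gene's difference was not tested. In bulk RNA, fewer cells of a type and less RNA per cell cannot be told apart.

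**Figure D1:**
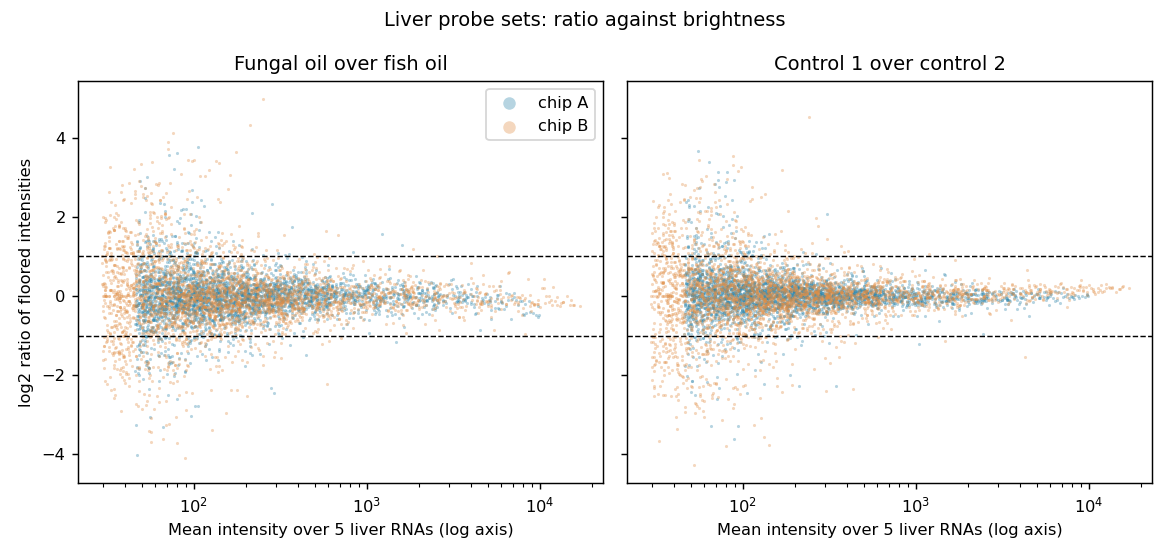
Log2 ratio of fungal oil to fish oil (left) and of control 1 to control 2 (right) against the mean intensity over 5 liver RNAs (log axis), 1 point per kept probe set, with dashed lines at 2-fold. Both panels widen among dim probe sets, and among bright ones the oils spread more than the controls (SD 0.38 against 0.28 on chip A).

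When the fit was limited to the 3269 bright probe sets, 7 passed at an adjusted p of 0.05 (0.214%). Of these, 4 have 1 gene symbol, namely Lypd8, Upp2, Emc10 and Plod3. Upp2 and Lypd8 read higher in fungal oil liver (limma adjusted p 0.0352 for both), and Plod3 (0.0352) and Emc10 (0.0471) read lower. These calls depended on the fit: with quantile normalization, or without the intensity trend, 0 of the bright probe sets passed, and with equal medians 13 did. In the rest of the text, genes are described by their values, and no gene passed in the fit of all kept probe sets.

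A small set of transcripts that stood higher in fungal oil liver held the clock output gene Dbp and the uridine phosphorylase Upp2. Dbp encodes a transcription factor that swings strongly over the day, and its intensity was 581 in fungal oil liver and 174 in fish oil liver, with 747 in the liver of both oils and 176 and 162 in the controls. Fish oil liver thus lay at the control level and fungal oil liver lay 3.34-fold above fish oil liver (log2 1.74 ± 0.16, limma SE), while the controls differed by 0.12. Upp2, which breaks down uridine and is known to cycle in mouse liver, read 2044 in fungal oil liver and 687 in fish oil liver, with 1779 in the liver of both oils and 806 and 812 in the controls (log2 1.57 ± 0.10). Again the RNAs of the diets with fungal oil stood above the other 3. Alas1, the first and rate-limiting enzyme of haem synthesis, read 4573 in fungal oil liver and 2265 in fish oil liver, with 3355 in the liver of both oils and 1299 and 1177 in the controls (log2 1.01 ± 0.15). Here both oils stood above the controls, and fungal oil was the higher.

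Of 23 genes on the clock list, which includes Dbp and Upp2, 7 were measured, of which 5 read higher and 2 lower with fungal oil, with a median log2 ratio of 0.26 against -0.03 over all 3515 genes. Apart from Dbp and Upp2, 3 read higher and 2 lower, and the oils were nearer to each other. Bhlhe40, a repressor within the clock, read 365 in fungal oil liver and 263 in fish oil liver, with 248 and 224 in the controls. Per1, a core clock repressor, read 248 and 207, with 175 and 157 in the controls. Neither had an unadjusted p under 0.05 (0.111 and 0.260). Clock itself read 43 in fungal oil liver and 56 in fish oil liver, near the dim end. The labels give no hour of killing per diet, so time of day and diet cannot be told apart for these genes. Among the 15 measured genes of haem synthesis and breakdown Alas1 alone had an unadjusted p under 0.05, and 11 of the 15 read lower with fungal oil, with a median of -0.14.

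The promoters of Dbp and Upp2 are shown because these genes read high in the same RNAs, beside that of Cd36, a fatty acid transporter described below that read high with fish oil alone. Each is the 250 bases before a start site listed by RefSeq on build GRCm38.p6, written 5′ to 3′ on the strand of the gene. Capitals mark matches on either strand to AGGTCA, the core motif that many nuclear receptors, PPAR-alpha among them, are known to bind. Dbp lies at chr7:45704997-45705246 on the plus strand, and Upp2 has 2 listed starts, with windows at chr2:58567084-58567333 and chr2:58754934-58755183, both on the plus strand. Cd36 lies at chr5:17835897-17836146 on the minus strand.
Dbp: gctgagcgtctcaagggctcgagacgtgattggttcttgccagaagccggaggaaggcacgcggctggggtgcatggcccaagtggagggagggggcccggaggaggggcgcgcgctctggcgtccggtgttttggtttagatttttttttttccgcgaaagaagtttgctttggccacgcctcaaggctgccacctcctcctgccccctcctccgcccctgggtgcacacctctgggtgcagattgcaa
Upp2 start 1: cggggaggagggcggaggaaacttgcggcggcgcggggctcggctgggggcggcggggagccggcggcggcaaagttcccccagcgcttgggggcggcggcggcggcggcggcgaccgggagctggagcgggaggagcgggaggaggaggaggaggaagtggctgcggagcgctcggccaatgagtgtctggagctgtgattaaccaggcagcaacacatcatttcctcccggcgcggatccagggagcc
Upp2 start 2: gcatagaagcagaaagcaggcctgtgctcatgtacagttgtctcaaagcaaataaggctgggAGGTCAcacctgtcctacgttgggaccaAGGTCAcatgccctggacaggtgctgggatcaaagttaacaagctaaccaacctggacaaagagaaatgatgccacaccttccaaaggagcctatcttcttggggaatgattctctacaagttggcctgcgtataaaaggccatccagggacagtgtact
Cd36: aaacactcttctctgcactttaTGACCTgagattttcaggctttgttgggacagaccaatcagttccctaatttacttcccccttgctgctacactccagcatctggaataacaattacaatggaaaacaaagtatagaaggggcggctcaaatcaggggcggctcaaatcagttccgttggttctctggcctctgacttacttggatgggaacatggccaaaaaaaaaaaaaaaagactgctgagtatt
The second Upp2 window held 2 matches to AGGTCA and the Cd36 window 1, and 14.0% of 32851 listed promoters hold at least 1 in the same length. None of the 4 windows held CACGTG, the E-box of the core clock (6.02% of promoters), TTATGNAA, a form of the D-box that DBP binds (3.07%), or a direct repeat of AGGNCA with 1 base between the copies (0.338%). All were searched on both strands, and a repeat can overlap a match to AGGTCA. A match is a description of the letters in these windows only.

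Known targets of PPAR-alpha leaned the other way, towards fish oil liver. Of 26 genes on the list of PPAR-alpha and its known targets 18 were measured, and 13 of them read lower with fungal oil, with a median log2 ratio of -0.41 (-0.26 with the probe sets of a gene averaged, and -0.26 in the bright subset). Over all genes 46.9% read higher and 52.1% lower, and the median was -0.03. With an unadjusted p under 0.05, 7 of the 18 were lower with fungal oil and 0 higher, where the shares over all genes were 4.84% and 4.47%. The 7 were Cidec, Cd36, Cyp4a10, Retsat, Ech1, Fabp1 and Plin2, most of them known from lipid droplets or from the uptake and oxidation of fatty acids. Cidec was dim, at 30 in fungal oil liver and 94 in fish oil liver, with 75 and 82 in the controls. With the probe sets of a gene averaged, Fabp1 (0.043) and Retsat (0.19) turned direction. The list's median between the controls was -0.08.

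The omega-hydroxylases Cyp4a10 and Cyp4a14, which oxidise the far end of fatty acids and are classic targets of PPAR-alpha, are described first. Cyp4a10 read 894 in fungal oil liver and 1566 in fish oil liver, with 1010 in the liver of both oils and 321 and 349 in the controls (log2 -0.81 ± 0.16). Cyp4a14 read 160 in fungal oil liver and 385 in fish oil liver, with 51 in the liver of both oils, and both controls lay below 0 (-10 and -5). The unadjusted p of Cyp4a14 between the oils was 0.0919, and its probe set was not among the bright ones. All 3 oil RNAs were thus above the controls for both genes, and fish oil was highest. Cyp4a31, a close relative whose probes may share transcripts with theirs, did not follow: it read 214 in fungal oil liver and 193 in fish oil liver, with 405 in the liver of both oils and 132 and 129 in the controls.

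In mitochondria, 14 genes of beta-oxidation were measured, of which 8 read lower and 6 higher with fungal oil, with a median of -0.14. The share lower, 57.1%, was near the 52.1% over all genes. Ech1, an auxiliary enzyme for unsaturated fatty acids, read 1388 in fungal oil liver and 2031 in fish oil liver, with 1731 in the liver of both oils and 1226 and 1252 in the controls (log2 -0.55 ± 0.09). Acads, the dehydrogenase of short chains, read 831 and 1235, with 855 and 919 in the controls (log2 -0.57 ± 0.12). Decr1, the reductase that lets polyunsaturated chains enter the cycle, read 736 and 935, with 608 and 616 in the controls (log2 -0.35 ± 0.11). For Ech1, Acads and Decr1, fish oil liver was the highest of the 5 RNAs. Cpt2, the inner enzyme of the carnitine shuttle, had the same order at 673 in fungal oil liver and 791 in fish oil liver, with 690 in the liver of both oils and 408 and 428 in the controls, but an unadjusted p of 0.151. Cpt1a and Acadm did not share this order. Cpt1a, which commits fatty acids to mitochondria, read 1285 in fungal oil liver and 1058 in fish oil liver, with 604 and 864 in the controls, and Acadm, the medium-chain dehydrogenase, read 2014 and 1774, with 1357 and 1371. Ppara itself read 1626 and 1243, with 1158 and 1325 in the controls (log2 0.39 ± 0.17). Acat1, of ketone body and isoleucine metabolism, read 1378 and 1810, with 1127 and 1145 in the controls (log2 -0.39 ± 0.09). In peroxisomes 6 of 7 measured genes read lower with fungal oil, by small amounts (median -0.09, against -0.08 between the controls).

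Among carriers and uptake proteins 7 of 8 measured genes read lower with fungal oil, with a median of -0.41, against 0.11 between the controls. That median was -0.22 after quantile normalization, -0.20 with the probe sets of a gene averaged and -0.02 with no filter on dim probe sets. Cd36, which takes fatty acids into the cell, read 223 in fungal oil liver and 591 in fish oil liver, with 170 in the liver of both oils and 280 and 213 in the controls (log2 -1.41 ± 0.31). Only the fish oil RNA stood apart, and the second Cd36 probe set gave 107 and 208, with 118 and 162 in the controls. Slc27a1, a fatty acid transport protein, read 84 in fungal oil liver and 198 in fish oil liver, with 200 in the liver of both oils and 187 and 172 in the controls (log2 -1.24 ± 0.20). Here the fungal oil RNA was the one apart, and the second probe set, at 114 and 107, showed no such gap. Fabp1, the abundant fatty acid binding protein of hepatocytes, read 7657 and 10333, with 7849 and 7694 in the controls (log2 -0.43 ± 0.06). Its second, dim probe set read 159 in fungal oil liver and 111 in fish oil liver, the opposite order. Fabp5, a relative found mainly outside hepatocytes, read 593 in fungal oil liver and 384 in fish oil liver, with 238 in the liver of both oils and 3334 and 3137 in the controls (log2 0.63 ± 0.15). The gap between the oils was small beside the distance of all 3 oil RNAs from the controls. Plin2, the coat protein of lipid droplets, read 2454 and 2997, with 2522 and 2606 in the controls (log2 -0.29 ± 0.08), and Retsat, a retinol saturase, read 970 and 1485, with 733 and 723 in the controls (log2 -0.61 ± 0.10), though its dim second probe set read 92 and 46.

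**Figure D2:**
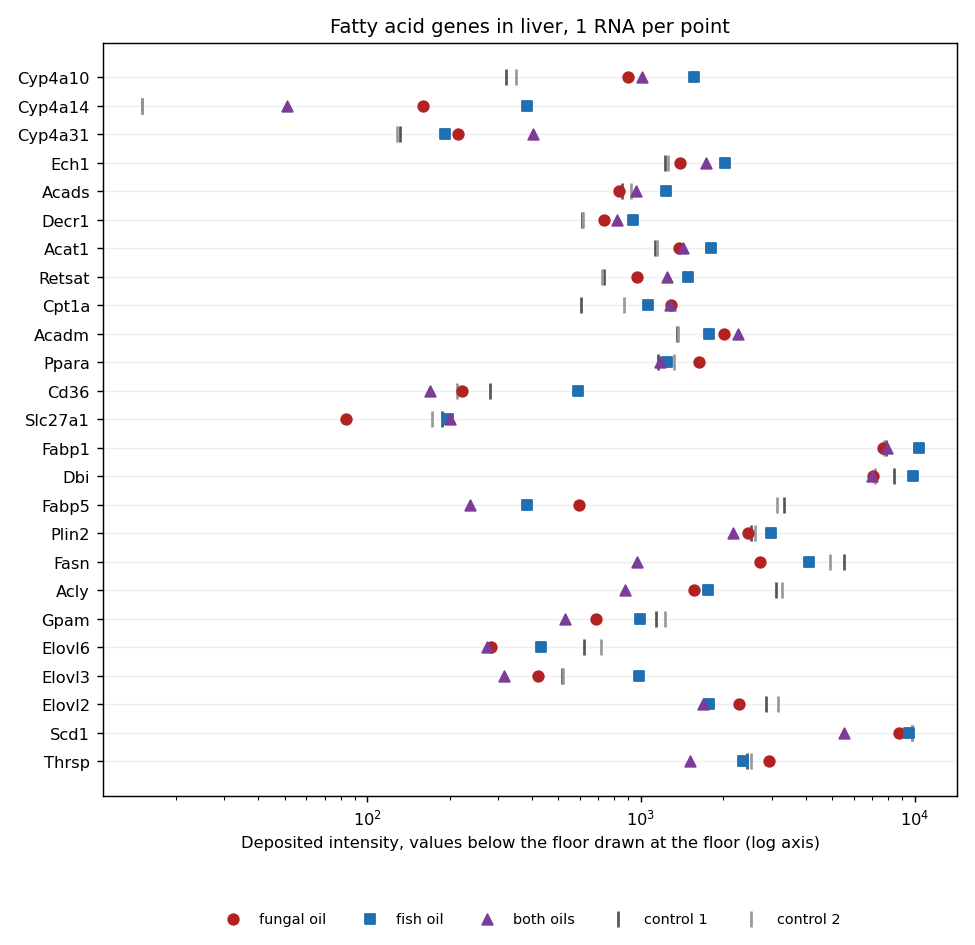
Deposited intensity (log axis) of fatty acid genes in each liver RNA: fungal oil (red circles), fish oil (blue squares), both oils (purple triangles) and the 2 controls (grey ticks). Fish oil lies right of fungal oil for Cyp4a10 (894 with fungal oil, 1566 with fish oil), Ech1, Cd36, Fasn and Elovl3, and left of it for Fabp5, Elovl2 and Ppara.

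Genes of fatty acid synthesis divided. Of 9 measured, 4 read higher and 5 lower with fungal oil, with a median of -0.01. Fasn, fatty acid synthase, read 2715 in fungal oil liver and 4104 in fish oil liver, with 966 in the liver of both oils and 5522 and 4906 in the controls (log2 -0.60 ± 0.16). Both single oils thus lay below the controls and above the liver of both oils, and fungal oil was the lower of the single oils. Gpam, the first enzyme of glycerolipid assembly, followed the same order at 683 and 989, with 526 in the liver of both oils and 1140 and 1228 in the controls (log2 -0.53 ± 0.12). Acly, which supplies acetyl-CoA, read 1568 and 1754, with 3118 and 3275 in the controls, so that the oils lay close to each other and below the controls. Its second probe set read 115 and 64, with 361 and 550 in the controls, below the controls too but in the opposite order between the oils. Thrsp, a lipogenic cofactor, read 2947 in fungal oil liver and 2353 in fish oil liver, with 1505 in the liver of both oils and 2444 and 2518 in the controls. Pgd, of the pentose phosphate pathway, read 60 in fungal oil liver and 5 in fish oil liver, with 4 in the liver of both oils and 139 and 135 in the controls, so fish oil has only a bound there.

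Among desaturases and elongases 6 of 7 measured genes read lower with fungal oil. The median log2 ratio was -0.12 between the oils and -0.14 between the controls, so the list leaned no further than the controls did. Elovl3, which elongates saturated and monounsaturated very long chains, read 421 in fungal oil liver and 983 in fish oil liver, with 317 in the liver of both oils and 513 and 520 in the controls (log2 -1.22 ± 0.16). Fish oil alone stood above the controls. Elovl6, which elongates palmitate, read 284 and 431, with 274 in the liver of both oils and 618 and 714 in the controls (log2 -0.60 ± 0.17). Elovl2, which elongates polyunsaturated chains towards docosahexaenoate, was the exception, with 2291 in fungal oil liver and 1780 in fish oil liver, 1690 in the liver of both oils and 2853 and 3167 in the controls (log2 0.36 ± 0.12). Scd1, the main desaturase of saturated chains, read 8749 and 9493, with 5541 in the liver of both oils and 9754 and 9811 in the controls. Its ratio was -0.12 as deposited and 0.24 after quantile normalization, so its direction is not settled.

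Few sterol genes were measured, and lipoprotein genes did not lean. Of 6 measured genes of cholesterol synthesis and uptake 5 read lower with fungal oil, with a median of -0.28 (-0.03 with no filter on dim probe sets). The median between the controls was -0.10, and only 3 of the 6 were further apart between the oils than between the controls. Fdft1, squalene synthase, read 409 in fungal oil liver and 562 in fish oil liver, with 457 and 474 in the controls (log2 -0.46 ± 0.13). Hmgcs1, which makes the precursor of mevalonate, read 1039 and 1328, with 1506 and 1667 in the controls. Of 16 measured lipoprotein genes 7 read higher and 9 lower, with a median of -0.04, and 0 had an unadjusted p under 0.05. Apoa4, an apolipoprotein of lipid-rich particles, read 781 in fungal oil liver and 629 in fish oil liver, with 117 in the liver of both oils and 1987 and 2034 in the controls. Abcc3, a bile acid and conjugate exporter, read 592 and 823, with 924 in the liver of both oils and 490 and 518 in the controls (log2 -0.48 ± 0.12).

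Of 27 listed enzymes that turn arachidonate and related fatty acids into eicosanoids, signalling lipids, 7 were measured, with 3 higher and 4 lower with fungal oil, a median of -0.08, and 0 with an unadjusted p under 0.05. Ephx2, which hydrolyses fatty acid epoxides, read 1338 in fungal oil liver and 1654 in fish oil liver, with 1139 and 1327 in the controls, and Cyp2j5, which makes such epoxides, read 1412 and 1690, with 1403 and 1415 (log2 -0.26 ± 0.09).

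The brightest transcripts of both chips leaned towards fish oil liver. Over the 100 brightest probe sets of chip A the median log2 ratio of fungal oil to fish oil was -0.11, with 71 of 100 lower, and over those of chip B it was -0.13, with 72 of 100 lower. Between the controls the same median was -0.02 for chip A and 0.14 for chip B. Quantile normalization, which gives every array the same spread of values, brought the chip A median to about -0.003 and the chip B median to -0.03. Cyp2e1, a P450 of alcohol and fatty acid oxidation, read 9438 in fungal oil liver and 13101 in fish oil liver, with 9172 and 9171 in the controls (log2 -0.47 ± 0.06), and -0.04 after quantile normalization. Gstp1, a glutathione transferase, read 8944 and 12575, with 8730 and 8844 in the controls (log2 -0.49 ± 0.06), and 0 after it. Ahsg, a secreted glycoprotein of hepatocytes, had -0.42 as deposited and 0 after that step, and Fabp1 -0.43 and -0.09. For these 4 genes the size of the ratio therefore rests on the scaling. Cyp4a10 (-0.77), Ech1 (-0.51), Cd36 (-1.37) and Elovl3 (-1.13) kept their direction after quantile normalization.

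With that limit, 12 of 15 measured P450 genes of families 1 to 3 read lower with fungal oil (median -0.14, and -0.06 after quantile normalization), and 11 of 16 glutathione transferases and conjugating enzymes (median -0.17, and -0.01). Cyp1a2, the P450 known for caffeine oxidation, ran against them at 9655 in fungal oil liver and 7107 in fish oil liver, with 8658 and 7775 in the controls, and its second probe set agreed in direction at 5021 and 2839. Cp, ceruloplasmin, the copper carrier of plasma, read 7540 and 5082, with 7027 in the liver of both oils and 6508 and 6750 in the controls (log2 0.57 ± 0.14), and fish oil was the lowest of the 5.

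Chaperones of the cytosol and the endoplasmic reticulum held a few genes that read lower with fungal oil. Of 24 measured, 16 (66.7%, against 52.1% over all genes) were lower and 3 of these had an unadjusted p under 0.05 (over all genes 4.84% did), with a median of -0.10 against 0.06 between the controls. Hspa5, the main chaperone of the endoplasmic reticulum, read 1996 in fungal oil liver and 3014 in fish oil liver, with 1820 in the liver of both oils and 2989 and 2614 in the controls (log2 -0.59 ± 0.17), and its second probe set read 1215 and 2073, with 1906 and 1879. Both RNAs with fungal oil lay below the other 3 at both probe sets. Hsph1, a cytosolic co-chaperone, read 129 and 201, with 115 in the liver of both oils and 231 and 237 in the controls. Both RNAs with fungal oil again lay below the other 3, though fish oil lay below the controls. Dnajb1, which works with Hsp70, read 84 and 156, with 118 and 114 in the controls, but its dim second probe set read 28 and 15. Creld2, a protein of the endoplasmic reticulum induced by misfolded proteins, read 72 in fungal oil liver and 246 in fish oil liver, with 163 in the liver of both oils and 222 and 289 in the controls (log2 -1.77 ± 0.28). Other chaperones of the endoplasmic reticulum on the list were split. Canx (log2 0.24), Pdia6 (0.20), Calr (0.11) and Pdia3 (0.05) read higher with fungal oil, and Pdia4 (-0.17) and P4hb (-0.11) lower.

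Of 36 measured cytosolic ribosomal protein genes 29 read lower with fungal oil, by a median of -0.12 on the log2 scale (-0.01 between the controls and -0.12 after quantile normalization), and Rps26 was the highest exception, at 205 in fungal oil liver and 115 in fish oil liver. The 28 measured genes of the respiratory chain split 14 to 14. Of 11 immediate early genes, which respond within minutes to stress or growth signals, 8 read lower with fungal oil (median -0.44, against 0.18 between the controls). Most were dim, and the median was -0.25 in the bright subset and -0.06 on chip A alone. Btg2, an antiproliferative gene, read 62 in fungal oil liver and 171 in fish oil liver, with 79 in the liver of both oils and 146 and 102 in the controls. Cish, a feedback inhibitor of growth hormone signalling, read 94 and 186, with 113 in the liver of both oils and 206 and 175 in the controls (log2 -0.98 ± 0.23). Hnf4a, a master regulator of hepatocyte genes, read 85 and 187, with 184 in the liver of both oils and 125 and 126 in the controls (log2 -1.14 ± 0.20), while Alb, which it is known to drive, read 13138 and 13435.

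The source label, which names liver and hepatocytes, was checked against markers. Of 12 hepatocyte markers 8 were measured, and their summed intensity was 58558 in fungal oil liver and 66550 in fish oil liver, with 59344 and 51829 in the controls. Their median log2 ratio was -0.12 as deposited and 0.03 after quantile normalization, so the direction between the oils depended on the scaling. Markers of other liver cells were present, so the RNA held more than hepatocytes. Of 24 macrophage markers 13 were measured, with sums of 2627 in fungal oil liver and 2387 in fish oil liver, against 3503 and 3473 in the controls. As a group they leaned neither way between the oils: 6 read higher and 6 lower with fungal oil, the median was 0, and Adgre1, a defining marker, was at the floor in both oils, at -6 and 11. Mpeg1, a pore-forming protein of macrophages, read 657 in fungal oil liver and 211 in fish oil liver, with 529 in the liver of both oils and 705 and 802 in the controls (log2 1.64 ± 0.19), so that fish oil alone lay low. C1qc, a complement subunit made by macrophages, read 331 and 197, with 377 and 337 in the controls, while its partners C1qa (104 and 105) and C1qb (190 and 205) read alike in both oils at their brightest probe sets. A dimmer C1qb probe set read 53 and 134, with 131 and 161 in the controls, the opposite order to C1qc. Lyz2, lysozyme of myeloid cells, ran the other way at 262 and 502, with 472 and 376 in the controls (log2 -0.94 ± 0.23), as did Cd14 at 242 and 365. Clec4f, specific to Kupffer cells, read 132 and 90, with 180 and 254 in the controls.

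Marker sums for other cell types were close in the 2 livers for endothelium (1590 with fungal oil and 1529 with fish oil, 7 of 15 measured), connective tissue cells (7753 and 7324, 14 of 19) and lymphocytes (3017 and 2877, 9 of 24). These sums rest on a few bright members, and the single markers were less alike. Among connective tissue markers 10 of 14 read lower with fungal oil, with a median log2 ratio of -0.19, while Fn1, fibronectin, read 3844 and 3177. Among lymphocyte markers 6 of 9 read lower, with a median of -0.61, while Ms4a1, the B cell protein CD20, read 1701 and 1517. That median was -0.05 with the floor at 0.25 in place of 0.1 times the trimmed mean, and 0.06 in the bright subset. Kdr, a growth factor receptor of endothelium, read 166 in fungal oil liver and 314 in fish oil liver, with 404 and 326 in the controls, while Eng, endoglin, read 1068 and 899. Blood cells stood further apart. The 4 measured markers of 14, all of red cells, each read lower with fungal oil and summed to 11787 in fungal oil liver and 16271 in fish oil liver, with 14072 and 11949 in the controls, and Hbb-b2, a beta globin, read 2138 and 3895, with 3088 and 2469 in the controls. The 3 measured neutrophil markers of 11 also each read lower, and summed to 245 in fungal oil liver and 468 in fish oil liver, with 397 and 459 in the controls; Camp, a granule peptide, made up most of the gap at 133 and 329, with 174 and 318 in the controls. The 4 measured adipocyte markers of 11 all read lower with fungal oil and summed to 5541 and 6083, most of it Car3 (5404 and 5811), which hepatocytes also make. The part of other cell types in the gene differences above was not tested.

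**Figure D3:**
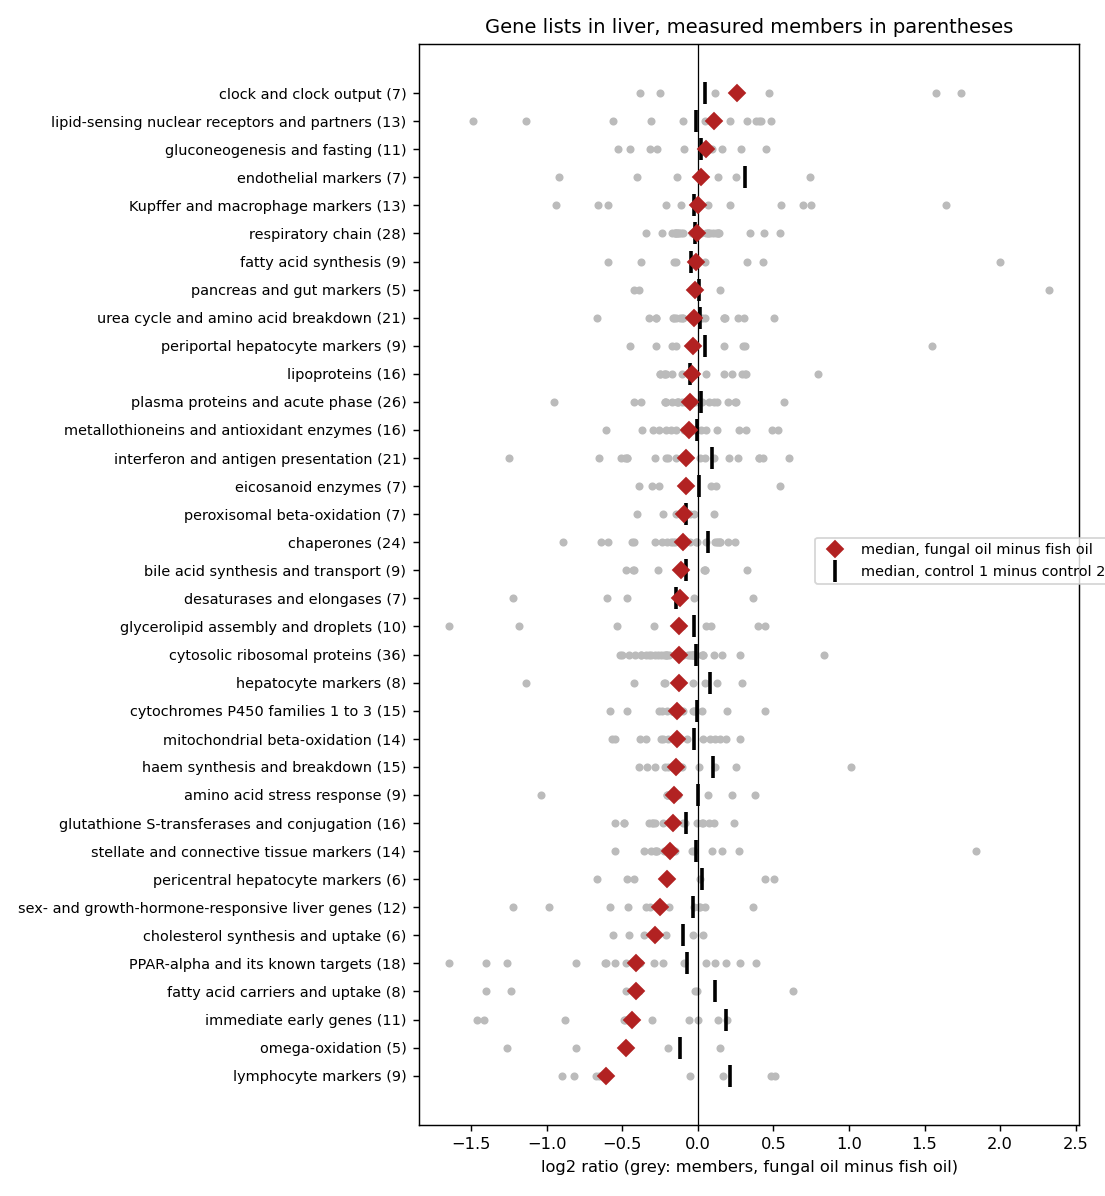
Log2 ratio of fungal oil to fish oil for the measured members (grey points) and median (red diamonds) of each list with at least 5 measured members, beside the median of control 1 minus control 2 (black ticks). Lymphocyte markers (median -0.61), omega-oxidation (-0.47), immediate early genes (-0.44), fatty acid carriers (-0.41) and PPAR-alpha targets (-0.41) lie lowest, and the clock list (0.26) lies highest. The lymphocyte median was 0.06 in the bright subset. The clock list includes Dbp and Upp2, its members furthest apart between the oils.

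The genes furthest apart were taken by a rule from 1878 bright genes, of which 21 (1.12%) read at least 2-fold higher and 32 (1.70%) at least 2-fold lower with fungal oil. The highest ratio among them belonged to Lypd8, a secreted protein best known from colon that binds bacteria, which read 346 in fungal oil liver and 69 in fish oil liver, with 292 in the liver of both oils and 373 and 335 in the controls (log2 2.33 ± 0.18). Fish oil alone was low, and a second, dim Lypd8 probe set read 60 and 62. Cdh1, E-cadherin of epithelial junctions and periportal hepatocytes, read 381 and 130, with 204 in the liver of both oils and 492 and 455 in the controls (log2 1.55 ± 0.21). Cd82, a tetraspanin, read 1103 and 511, with 789 in the liver of both oils and 902 and 848 in the controls (log2 1.11 ± 0.12). Ube2s, a ubiquitin-conjugating enzyme of mitotic exit, read 466 in fungal oil liver and 227 in fish oil liver, with 582 in the liver of both oils and 190 and 217 in the controls, the order seen for Dbp and Upp2. The other genes named on this side, Cryaa, Ppp2ca, Cbl, Wbp1, Sf3b2, Mrpl3, Psme4, Efhd2 and 1700097N02Rik, had log2 ratios between 1.04 and 1.57, and the second probe set of Efhd2 had the opposite sign (-0.40).

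On the lower side Lgals3, Plod3 and Emc10 were low in the fungal oil RNA alone. Lgals3, the lectin galectin-3, read 49 in fungal oil liver and 285 in fish oil liver, with 270 in the liver of both oils and 215 and 196 in the controls (log2 -2.54 ± 0.28). Plod3, a collagen lysyl hydroxylase, read 69 and 380, with 325 in the liver of both oils and 368 and 313 in the controls (log2 -2.46 ± 0.20). Emc10, of the complex that inserts membrane proteins in the endoplasmic reticulum, read 63 and 318, with 328 in the liver of both oils and 376 and 316 in the controls (log2 -2.34 ± 0.21). Selplg, the selectin ligand of leukocytes, read 120 and 310, with 87 in the liver of both oils and 318 and 362 in the controls (log2 -1.37 ± 0.26), so that both RNAs with fungal oil were low. Abce1, a ribosome recycling factor, read 116 and 310, with 124 in the liver of both oils and 131 and 104 in the controls (log2 -1.42 ± 0.27), so that fish oil alone was high. Diaph1, Dct, Cul7, 1110038F14Rik, Ptafr, Umps and Mypop had log2 ratios between -2.37 and -1.24. Of the 504 genes with a second kept probe set, that probe set had the same sign of ratio in 278 (55.2%) between the oils and in 283 between the controls, and of 19 such genes at least 2-fold apart between the oils at the brightest probe set (9.33% of all genes were) it had the same sign in 11. A single probe set in a single RNA was therefore often not matched by its gene's other probe set.

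**Figure D4:**
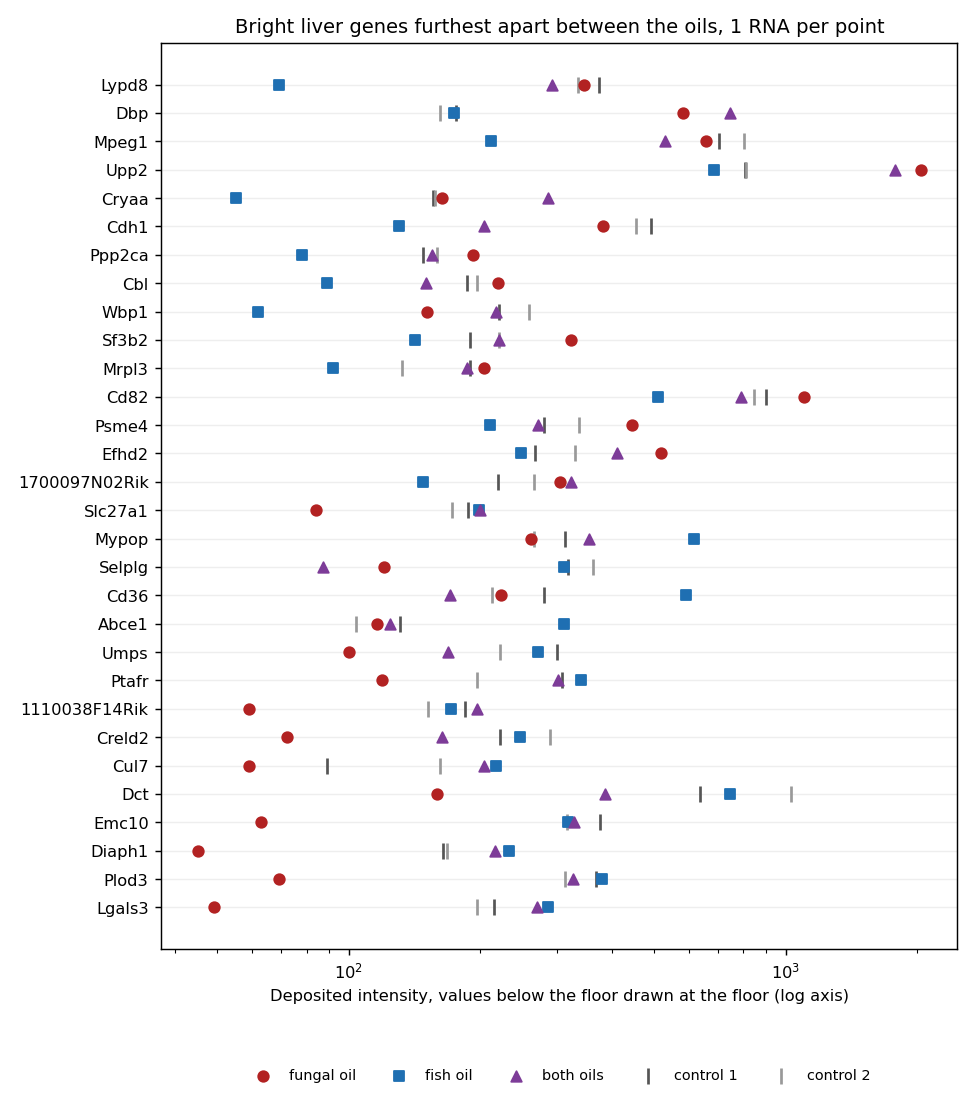
Deposited intensity (log axis) of 30 bright genes furthest apart between the oils in each liver RNA, from the highest ratio of fungal oil to fish oil (Lypd8, log2 2.33) at the top to the lowest (Lgals3, -2.54). In many rows 1 oil RNA lies apart from all other points, as fish oil does for Mpeg1 and fungal oil for Plod3.

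Some genes had 1 oil at or below the floor and so have only a bound. In fungal oil liver Rac2, a GTPase of blood cells, read at least 17.5-fold higher, at 262 against -8 in fish oil liver, but the controls read -13 and 39. Dmbt1, a secreted mucosal glycoprotein, read at least 12.3-fold higher, at 184 against -5, with 107 and 122 in the controls and -9 in the liver of both oils. Ngef, Rab3ip and Mrps12 had bounds between 10.9-fold and 13.5-fold. Scgb1a1, a secretoglobin of airway, read at least 17.0-fold lower with fungal oil, at -165 against 255, where the controls themselves read 33 and 218. Gon4l, Barx1, Numbl and Abhd14a had bounds between 10.4-fold and 16.1-fold lower. The controls of Scgb1a1 (log2 -2.72), Numbl (-2.50), Abhd14a (2.50), Rac2 (-1.38), Mrps12 (1.115) and Ngef (1.01) were themselves at least 2-fold apart.

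The liver of both oils and the controls show which oil RNA stood apart. Of the 53 bright genes (2.82%) at least 2-fold apart between the oils, the liver of both oils lay nearer to fungal oil on the log2 scale in 27 and nearer to fish oil in 26. The count depended on the direction: among the 21 genes higher with fungal oil it lay nearer to fungal oil in 19, and among the 32 lower genes it lay nearer to fish oil in 24. The controls' mean lay nearer to fungal oil in 14 of the 21 and nearer to fish oil in 22 of the 32. The choice of bright genes bears on these counts, because a gene whose other RNAs lie near the higher oil has a higher mean over the 5 RNAs and passes more easily. They are therefore given as a description of these genes only.

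The same holds for counts of single RNAs that lay apart, since a probe set with 1 low RNA and 4 high ones passes the limit on the mean more easily than one with 1 high RNA. With a gap of at least 2-fold, over the 3269 bright probe sets, fungal oil alone lay below the other 4 RNAs at 18 (0.551%) and above them at 0, and fish oil alone lay below at 24 (0.734%) and above at 3 (0.0918%), of which Cd36 and Abce1 have a symbol. Probe sets at which both RNAs with fungal oil stood apart from the other 3 were fewer, 4 higher (0.122%) and 2 lower (0.0612%). The higher ones were Dbp, Upp2, Ube2s and 1 probe set that is listed with several genes and left unnamed, which read 2682 in fungal oil liver and 1100 in fish oil liver, with 2362 in the liver of both oils and 910 and 933 in the controls. The lower ones were Selplg and 1 probe set with no symbol. Both RNAs with fish oil stood apart at 2 higher (0.0612%) and 1 lower (0.0306%), none with a symbol.

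**Figure D5:**
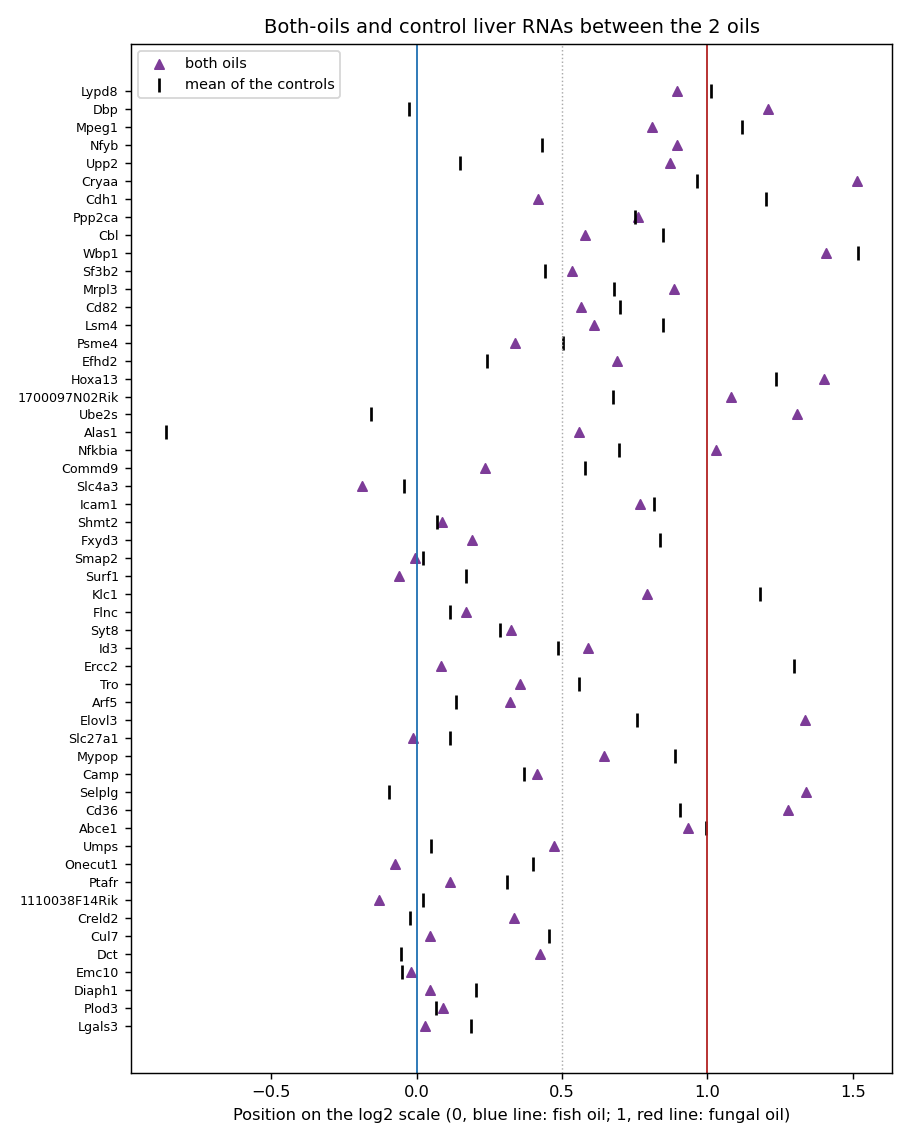
Position of the liver of both oils (purple triangles) and of the controls' mean (black ticks) on a log2 scale where 0 is fish oil and 1 is fungal oil, for the 53 bright genes at least 2-fold apart. For genes higher with fungal oil (upper rows) the triangles lie right of the middle in 19 of 21, and for genes lower with fungal oil they lie left of it in 24 of 32.

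The hippocampus, 1 RNA for each diet, was set beside the liver. By the labels it came from the same mice as the livers, so agreement between the tissues is not an independent repeat. Of the 30 bright genes named in liver 27 had both hippocampus values above the floor, and 15 of these had the same direction as in liver. In hippocampus 4 of the 27 were at least 2-fold apart, 3 of them in the same direction as in liver. These 3 were Dbp (206 with fungal oil and 84 with fish oil), Lgals3 (139 and 281) and Creld2 (26 and 64), while Cul7 ran the opposite way. Upp2 was near the floor in both (44 and 38), as was Cd36 (-1 and 3). Ube2s, which had the order of Dbp in liver, read 204 with fungal oil and 357 with fish oil in hippocampus, opposite to liver. The share of all probe sets that far apart in hippocampus was not counted, and its 1 control RNA gives no spread.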

How the data were processed

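For each array the authors deposited a table with an intensity for every probe set, in whole numbers that include negative values. Their software, background step and scaling were not given in the sources used here. The trimmed mean of each liver array (2% left out at each end) lay between 150.3 and 150.5, so the arrays were used as deposited, without the 55 control probe sets per chip. Signal over background and the number of arrays limit the precision.

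Intensities under 15, 0.1 times the trimmed mean, were set to that floor and log2 was taken, so fold changes of dim probe sets are understated. Probe sets with a mean over the 5 liver RNAs at or above their chip's median were kept, 3265 on chip A and 3272 on chip B. Symbols came from the platform annotation supplied with the values: 5541, 197 and 791 chip A probe sets have 1 symbol, several or none, and 2001, 27 and 4512 on chip B. A gene is represented by its brightest kept probe set. The 4 diets were fitted per chip with limma 3.58.1 in R 4.3.3 (lmFit, eBayes with an intensity trend; 1 residual degree of freedom, prior degrees of freedom 2.17 and 2.05), and p-values were adjusted over both chips by the Benjamini-Hochberg method. The SE is that of this fit. The fit takes the spread of each oil's lone RNA to equal that of the controls, and p-values measure only the spread between the 2 control RNAs.

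Named were any called gene; among bright genes (75th percentile and above) with both oils above the floor, an unadjusted p under 0.05 and a ratio larger than that between the controls, the 15 highest and 15 lowest; the 5 largest bounds each way among genes with 1 oil at the floor and the other at 150 or more; and list members. Ube2s, outside this rule, was chosen after its values were seen. The members, lists and rules were chosen with earlier results of these data known. Alternatives were other floors, no filter, a bright subset, quantile normalization, equal medians, no intensity trend, an additive fit, chip A alone, leaving out a control, and averaging the probe sets of a gene. Promoters were matched by symbol, 33 of the 40 genes named by ratio or bound having an entry.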

Additional observations from a re-analysis of the deposited data

Results flagged for a closer look

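Cul7, a subunit of a ubiquitin ligase, drew attention because its 2 tissues ran opposite ways. In liver it read 59 with fungal oil and 217 with fish oil (log2 -1.88 ± 0.59), with controls of 89 and 162 that were themselves 0.86 apart on the log2 scale. In hippocampus it read 161 with fungal oil and 30 with fish oil, a log2 ratio of 2.42. The difference between the tissues was not tested, since each diet has 1 RNA per tissue.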

How the results depend on the processing

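The count of 0 calls was the same with both other floors, quantile normalization, equal medians, no intensity trend, the additive fit and chip A alone. It was 7 in the bright subset and 609 with no filter, where 606 of the 609 had controls that were identical after the floor, so that the spread they gave was 0 by construction. Leaving out a control in the additive fit gave 0 to 3 calls. Probe sets at least 2-fold higher with fungal oil numbered 794 with no filter, 56 in the bright subset and 130 on chip A alone, and 846, 61 and 137 were at least 2-fold lower; fewer or more probe sets enter by construction. Leaving out a control gave 421 to 427 higher and 392 to 414 lower.

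For 97 named or described genes, 5 of 1027 comparisons with an alternative turned the direction. Most of the 1027 could not turn it. The filters, the trend, the additive fits and chip A alone leave a gene's ratio unchanged, and another floor cannot change its sign. Averaging the probe sets of a gene could, and it turned 4 and kept 12. Those turned were Fabp1 (0.043), Retsat (0.19), Acly (0.34) and Dnajb1 (0.0037). Quantile normalization turned 1, Scd1 (0.24), and kept 96, and equal medians kept 97. In the bright subset, chosen after seeing the data for these further fits, the 7 calls became 8 on chip A alone, 13 with equal medians, 1 in the additive fit and 0 with quantile normalization or no trend. The medians of 39 lists changed sign for 7 under quantile normalization and 4 with equal medians; PPAR-alpha targets stayed between -0.26 and -0.43. Over these settings the median ran between -0.20 and -0.47 for omega-oxidation, -0.02 and -0.41 for fatty acid carriers, -0.03 and -0.28 for cholesterol genes, -0.08 and -0.21 for ribosomal proteins, -0.08 and -0.18 for chaperones, and 0.11 and 0.47 for the clock list. No paired analysis was possible because the oil RNAs carry no replicate number.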

Other observations

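Genes that depend on the pattern of growth hormone or on sex in mouse liver leaned towards fish oil liver. Of 22 listed, 12 were measured, 8 read lower with fungal oil and 4 of these had an unadjusted p under 0.05, with a median log2 ratio of -0.25. Over all genes 52.1% read lower and 4.84% were lower at that p, and the list's median was -0.12 after quantile normalization. Mup3, a major urinary protein, read 5177 in fungal oil liver and 6582 in fish oil liver, with 4802 and 5012 in the controls (log2 -0.35 ± 0.08). It is among the 100 brightest probe sets of chip A, whose median moved to about -0.003 after quantile normalization. Elovl3, Cish and Serpina1e were the other 3, and Serpina1e is among the bright transcripts whose ratio shrank after quantile normalization (-0.47 as deposited and -0.19 after it). Hsd3b5, a steroid dehydrogenase of male liver, ran the other way at 1856 with fungal oil and 1444 with fish oil, with 1588 and 1644 in the controls (log2 0.36 ± 0.09).

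Of 21 measured genes of interferon response and antigen presentation 9 read higher and 12 lower with fungal oil, with a median of -0.08. At an unadjusted p under 0.05, 2 were higher, where 4.47% of all genes were. H2-K1, a class I histocompatibility protein, read 3331 with fungal oil and 2521 with fish oil, with 3023 and 3294 in the controls, and Psmb8, a subunit of the immunoproteasome, read 342 and 225, with 442 and 440 (its second probe set read 187 and 193). At the brightest probe set of both, fish oil was the lowest of the 5 liver RNAs. Among genes of fasting and gluconeogenesis 6 of 11 read higher with fungal oil and 0 had an unadjusted p under 0.05. The list median was 0.05. On a separate list, of the urea cycle and amino acid breakdown, 8 of 21 measured genes read higher and 13 lower with fungal oil (median -0.03). Its member Oat, an aminotransferase of hepatocytes around the central vein, read 2432 with fungal oil and 1714 with fish oil, with 1574 and 1519 in the controls (log2 0.50 ± 0.13).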
